A study of Mus musculus with 6 samples.

Results

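Steroid hormone synthesis in mouse cumulus granulosa cells was followed through 10 genes, Star and 9 enzymes or enzyme partners, which were found by exact gene name among the 24982 genes of the authors' deposited table. All 10 were present in that table and are described in pathway order, from the entry of cholesterol into mitochondria to progesterone, androgens, estradiol and the breakdown of progesterone. Cumulus granulosa cells surround the oocyte in the ovarian follicle. The cells came from mice of the Kun-Ming strain, and the 2 groups were 3 libraries labelled control and 3 labelled Atg5-KD. The sample titles call the same groups ctr and ko. Atg5 encodes a protein needed to build autophagosomes, the vesicles that carry cell contents to lysosomes, and the Atg5-KD cells received short hairpin RNAs against it. What the control cells received, the animals' age and whether the libraries of a group were separate cultures or animals are not given in the labels. The p-values therefore speak only of the spread among these 6 libraries, and that spread may be technical.

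Steroid hormones are made from cholesterol. The StAR protein moves cholesterol to the inner mitochondrial membrane, where the side-chain cleavage enzyme CYP11A1, fed with electrons by ferredoxin reductase and ferredoxin, cuts it to pregnenolone, and 3-beta-hydroxysteroid dehydrogenase turns pregnenolone into progesterone. In the follicle, CYP17A1 of theca cells makes androgens, and aromatase (CYP19A1) with HSD17B1 of granulosa cells makes estradiol. After ovulation, granulosa cells luteinize and progesterone becomes their main product, and in rodents AKR1C18 turns progesterone into an inactive form when the corpus luteum regresses.

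In the Atg5-KD libraries the first steps of the pathway were higher and an estradiol-forming step was lower. Star, Cyp11a1 and Fdx1 (ferredoxin) rose by 2.18-fold to 2.68-fold, Hsd3b1 rose by 1.46-fold and Fdxr (ferredoxin reductase) by 1.24-fold, while Hsd17b1 was 1.73-fold lower. Of the 10 genes, 8 were tested in the authors' deposited table, with 5 called higher and 1 called lower by DESeq2's Wald test at an adjusted p under 0.05. Among all 14835 tested genes, 10.4% were called higher and 10.5% lower. The median log2 fold change was 0.43 over the 8 genes and 0.00 over all tested genes. Hsd17b7 and Akr1c18 were not called, and Cyp17a1 and Cyp19a1 had too few reads for an adjusted p-value. Fewer cells of a type and less RNA per cell cannot be told apart in these bulk libraries.

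The authors' deposited table gives 1 mean and 1 fold change per gene and no value per library. Its digits allowed the whole reads behind each gene to be worked out for each library, and normalized counts below are those reads divided by the library's size factor. The libraries are called C1 to C3 (control) and K1 to K3 (Atg5-KD) in falling order of size factor, and which labelled sample each of them is remains unknown. The recovered reads came to between 15867898 and 17374692 in the control libraries and between 8833548 and 10051188 in the Atg5-KD libraries. At the same normalized count, counting error was therefore larger in the second group. Fold changes are given as Atg5-KD over control, a direction that only the order of names in the table's title supplies.

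Atg5 RNA was not detectably lower in the libraries labelled Atg5-KD, so the target gene checks neither that label nor the direction, and every direction given here rests on the labels and the table's title. Its normalized count was 350.4, 462.0 and 429.7 in C1 to C3 and 386.5, 408.4 and 395.6 in K1 to K3, and all 3 Atg5-KD values lay within the control range. The authors' deposited table gave it a log2 fold change of -0.06 ± 0.14 (SE), with a DESeq2 adjusted p of 0.822 and a 95% interval from -0.34 to 0.21. The table holds RNA only, so the level of ATG5 protein is not known from it.

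Star, the cholesterol carrier and the first step of the pathway, had the largest fold change of the 8 tested genes, with Fdx1 close to it. Its normalized count was 718.3, 675.4 and 808.1 in the control libraries and 1957, 1567 and 2377 in the Atg5-KD libraries. The lowest Atg5-KD library (K2) was still well above the highest control library (C3), so the groups did not overlap. The means were 733.9 ± 67.7 and 1967 ± 404.9 (SD, n = 3 each). The authors' deposited table lists a log2 fold change of 1.42 ± 0.14 (SE) and a DESeq2 adjusted p of 5.54e-22, which is 2.68-fold higher with a 95% interval from 2.22 to 3.24. The Star gene lies on chromosome 8 at 25806555 to 25815982 of mm10, plus strand.

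Cyp11a1, whose enzyme makes pregnenolone, was among the most abundant transcripts of these cells, with the 8th highest base mean of the table. Its normalized count was 27698, 31824 and 34355 in the control libraries and 69502, 57382 and 77831 in the Atg5-KD libraries. The groups stood apart, and as for Star the lowest Atg5-KD value was that of K2, although values per library are less certain for Cyp11a1. The means were 31292 ± 3360 and 68238 ± 10283 (SD, n = 3 each). Cyp11a1 had a log2 fold change of 1.12 ± 0.12 (SE) in the authors' deposited table, with a DESeq2 adjusted p of 4.43e-19, a 2.18-fold difference (95% interval 1.86 to 2.56). A predicted gene, Gm17322, shares 145 exonic bases with Cyp11a1 on the same strand, and how the authors' counting treated such shared bases is not stated.

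Fdx1 and Fdxr form the electron chain that serves CYP11A1, and they differed in how far they rose. The normalized count of Fdx1 was 3980, 4894 and 5163 in the control libraries and 12960, 9780 and 14027 in the Atg5-KD libraries. Every Atg5-KD library was above every control library, with K2 again the lowest of its group. Its log2 fold change was 1.39 ± 0.13 (SE) in the authors' deposited table, with a DESeq2 adjusted p of 4.53e-23, or 2.62-fold. For Fdxr the normalized count was 3505, 3886 and 3948 in the control libraries and 5034, 4299 and 4759 in the Atg5-KD libraries. These groups did not overlap either, but the gap between C3 and K2 was small. Fdxr was listed at a log2 fold change of 0.31 ± 0.10 (SE) in the authors' deposited table, with a DESeq2 adjusted p of 0.00863.

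The call of Fdxr was the least firm of the 6. In limma on the recovered reads its adjusted p was 0.0248, and it was no longer called when C3 (0.0641), K1 (0.0857) or K3 (0.110) was left out. Removing the trend of fold changes with GC content and gene length moved its log2 fold change to 0.60, with 6.53% of all tested genes called higher and 7.29% lower. Its longest transcript had 60.0% GC, the highest share among the 10 genes.

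Hsd3b1, whose enzyme completes progesterone, had the 6th highest base mean of the table and the highest level per kilobase of annotated exon of the 10 genes. Normalized counts of Hsd3b1 were 40354, 48533 and 49780 in the control libraries and 65190, 65798 and 71400 in the Atg5-KD libraries. The Atg5-KD values lay close together and all above the control values, of which C1 was the lowest. As for Cyp11a1, these values per library are less certain. The means were 46222 ± 5121 and 67463 ± 3423 (SD, n = 3 each). The log2 fold change was 0.55 ± 0.10 (SE) in the authors' deposited table, with a DESeq2 adjusted p of 1.11e-06, or 1.46-fold (95% interval 1.28 to 1.67). Mice carry several near-identical Hsd3b genes, and reads shared between such copies could have been split in counting, so the level of a single copy is uncertain. Hsd3b2 to Hsd3b6 had base means from 0 to 3.337 and Hsd3b7 had 445.7, against 56842 for Hsd3b1. Against a null of an absolute log2 fold change of at most 0.25, the adjusted p of Hsd3b1 was 0.0528 and it was not called.

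**Figure D1:**
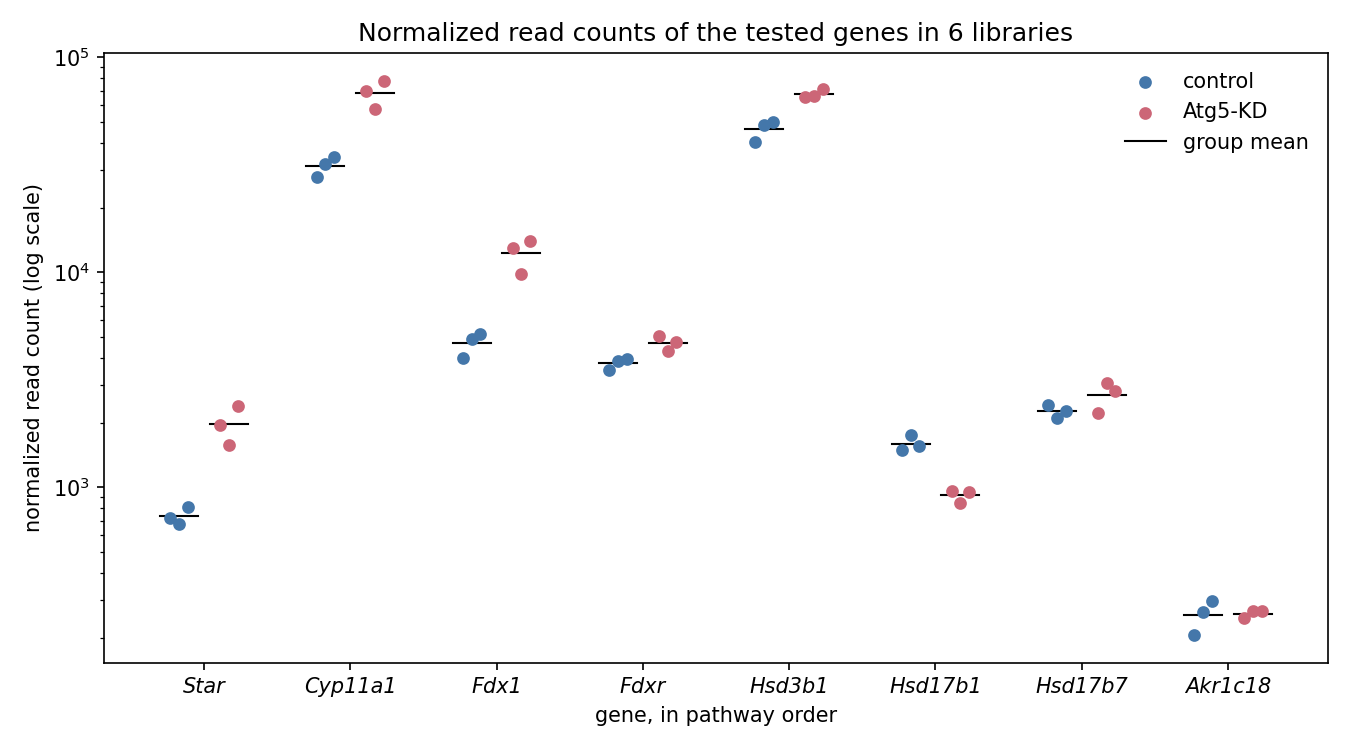
Normalized read count (log scale) of the 8 tested genes in each of the 3 control and 3 Atg5-KD libraries, in pathway order. Points are libraries C1 to C3 and K1 to K3 from left to right and bars are group means, and the groups stand apart for the first 5 genes and for Hsd17b1, while those of Hsd17b7 and Akr1c18 overlap.

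The androgen and aromatase steps were almost silent in both groups. Cyp17a1, the theca cell enzyme that forms androgens, had 1 read in all 6 libraries, in C3. That was 0.0201 reads per 1000000 recovered reads in control (exact Poisson 95% interval 0.000508 to 0.112) and 0 in Atg5-KD, where 3 counts would be 0.104. Cyp19a1, the aromatase that defines estrogen-making granulosa cells, had 0, 1 and 3 reads in C1 to C3 and 0, 3 and 5 reads in K1 to K3. On the same scale Cyp19a1 was at 0.0803 in control (0.0219 to 0.206) and 0.278 in Atg5-KD (0.120 to 0.548), with overlapping groups and a library without a read in each. The intervals cover counting error only. The authors' deposited table lists a log2 fold change of 1.82 ± 1.50 (SE) for Cyp19a1 with an unadjusted DESeq2 p of 0.227 and no adjusted p, so a difference was not detectable at this depth.

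Hsd17b1, the granulosa cell enzyme that reduces estrone to estradiol, was the only one of the 8 tested genes called lower. Normalized counts were 1488, 1744 and 1554 in the control libraries and 964.3, 846.1 and 952.1 in the Atg5-KD libraries. The highest Atg5-KD library was well below the lowest control library. The means were 1595 ± 132.9 and 920.8 ± 65.04 (SD, n = 3 each), and within each group the libraries differed little. A log2 fold change of -0.79 ± 0.11 (SE) stood in the authors' deposited table, with a DESeq2 adjusted p of 1.63e-11. The call held in limma without each library in turn, with log2 fold changes from -0.84 to -0.73.

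Hsd17b7, which reduces estrone to estradiol and also takes part in cholesterol synthesis, was not called. Hsd17b7 had normalized counts of 2426, 2102 and 2260 in the control libraries and 2219, 3049 and 2797 in the Atg5-KD libraries. K1 fell inside the control range, while K2 and K3 were above it. The authors' deposited table lists Hsd17b7 at a log2 fold change of 0.25 ± 0.12 (SE), with a DESeq2 adjusted p of 0.133. Without K1 the limma log2 fold change was 0.37 with an adjusted p of 0.0240, and without C1 it was 0.29 with an adjusted p of 0.0390, so in both cases the gene was called higher.

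Akr1c18, the enzyme of progesterone breakdown, had nearly the same mean in both groups. Akr1c18 had normalized counts of 205.8, 262.0 and 294.9 in the control libraries and 246.1, 265.4 and 264.7 in the Atg5-KD libraries. All Atg5-KD values lay inside the control range. The authors' deposited table lists a log2 fold change of 0.03 ± 0.17 (SE), with a DESeq2 adjusted p of 0.943 and a 95% interval from -0.30 to 0.35. Akr1c genes also form a family of similar copies, so its reads are uncertain in the same way as those of Hsd3b1.

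**Figure D2:**
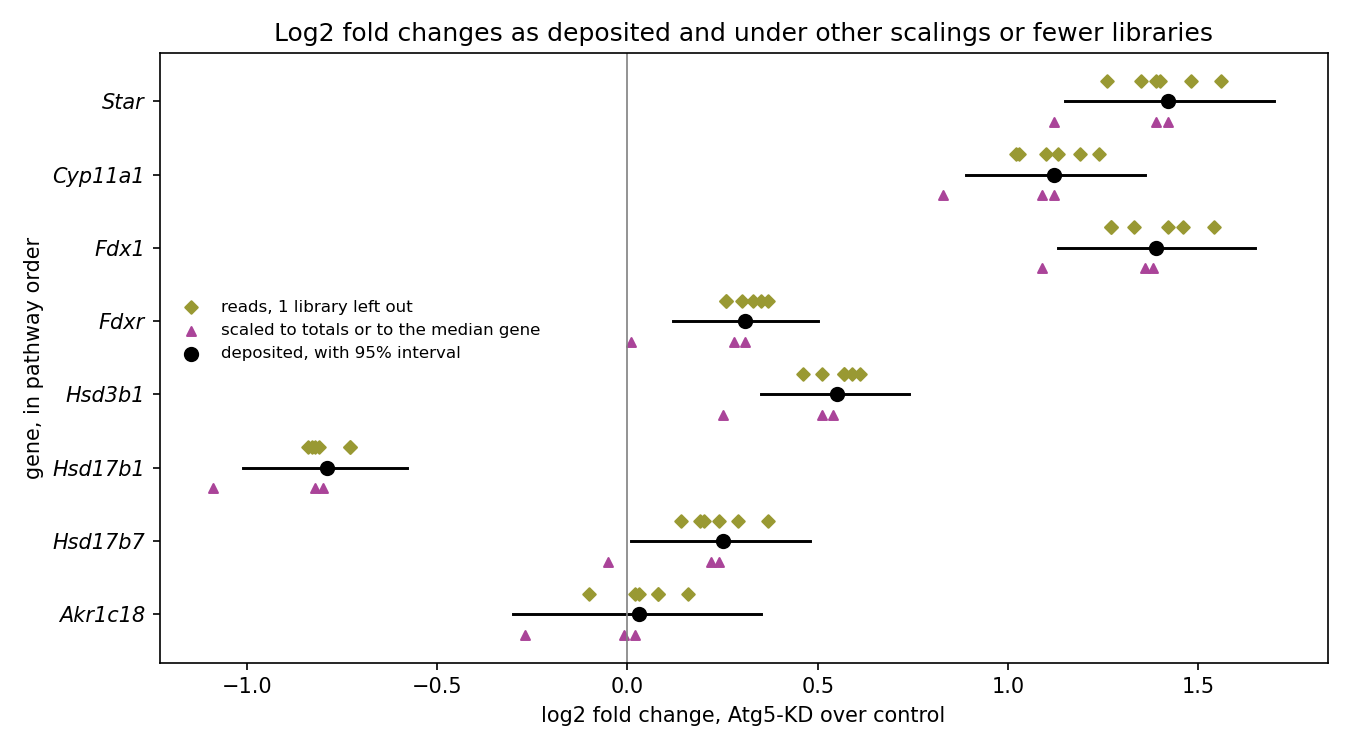
Log2 fold change (Atg5-KD over control) of the 8 tested genes. Black points and lines are the deposited values with 95% intervals, diamonds are limma on the recovered reads with 1 library left out, and triangles are the deposited values shifted to equal totals of all counts, equal totals without Rn45s, or a median of 0. Star, Cyp11a1, Fdx1 and Hsd3b1 lie above 0 and Hsd17b1 below 0 throughout, Fdxr reaches 0.01, and Hsd17b7 (to -0.05) and Akr1c18 (to -0.27) cross 0.

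Of the 8 tested genes, 5 had all Atg5-KD libraries above all control libraries and 1 had them all below. Over the 14828 tested genes with recovered reads, 19.5% stood apart in the first direction and 20.4% in the second. The 10 genes together took 0.634%, 0.759% and 0.785% of the recovered reads in C1 to C3 and 1.27%, 1.13% and 1.39% in K1 to K3. Most of that was Cyp11a1 and Hsd3b1, which alone took 0.537% to 0.673% in control and 0.975% to 1.19% in Atg5-KD.

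The choice of scaling bears on the smaller changes. The ribosomal RNA locus Rn45s had a base mean of 1509945 and a log2 fold change of 4.24 in the authors' deposited table, and its reads per library were not recovered. Setting both groups to an equal total of all counts shifted every log2 fold change by -0.30, and without Rn45s the shift was -0.03. Under the larger shift Star (1.12), Fdx1 (1.09), Cyp11a1 (0.83) and Hsd3b1 (0.25) were still called higher and Hsd17b1 (-1.09) lower, Fdxr was at 0.01, and Hsd17b7 (-0.05) and Akr1c18 (-0.27) turned negative without being called. Of all tested genes, 3.60% were called higher and 38.7% lower under that shift.

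Ratios between genes of the same library do not depend on scaling between libraries, and 7 were computed, chosen with the values known and given without a test. Of these, 5 use Cyp11a1 or Hsd3b1, whose values per library are less certain than those of the other genes. With 3 libraries against 3, the smallest two-sided exact permutation p is 0.10. Cyp11a1 reads were 68.6%, 65.6% and 69.0% of Hsd3b1 reads in C1 to C3 and 106.6%, 87.2% and 109.0% in K1 to K3. All 3 Atg5-KD ratios were above all 3 control ratios, a 1.49-fold difference between the means. Fdx1 reads were 123.4% ± 8.86 of Fdxr reads in control and 259.9% ± 33.7 in Atg5-KD (SD, n = 3 each), so the ferredoxin rose 2.11-fold against its reductase.

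Against Cyp11a1, by contrast, the rise of Fdx1 and Star was modest. Fdx1 was at 14.9% ± 0.511 of Cyp11a1 in control and 17.9% ± 0.808 in Atg5-KD, and Star at 2.36% ± 0.236 and 2.87% ± 0.167 (SD, n = 3 each). These were 1.20-fold and 1.22-fold differences, with groups that did not overlap. Hsd17b1 moved the other way and was at 5.37%, 5.48% and 4.52% of Cyp11a1 in C1 to C3 and at 1.39%, 1.47% and 1.22% in K1 to K3, a 3.76-fold lower ratio.

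The other ratios set estradiol formation and progesterone breakdown against their neighbours. Hsd17b1 was at 71.0% ± 10.98 of Hsd17b7 in control and 35.1% ± 7.90 in Atg5-KD, 2.02-fold lower (SD, n = 3 each). Akr1c18 was at 0.547% ± 0.0416 of Hsd3b1 in control and 0.384% ± 0.0173 in Atg5-KD, 1.43-fold lower, although its own count did not differ detectably.

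**Figure D3:**
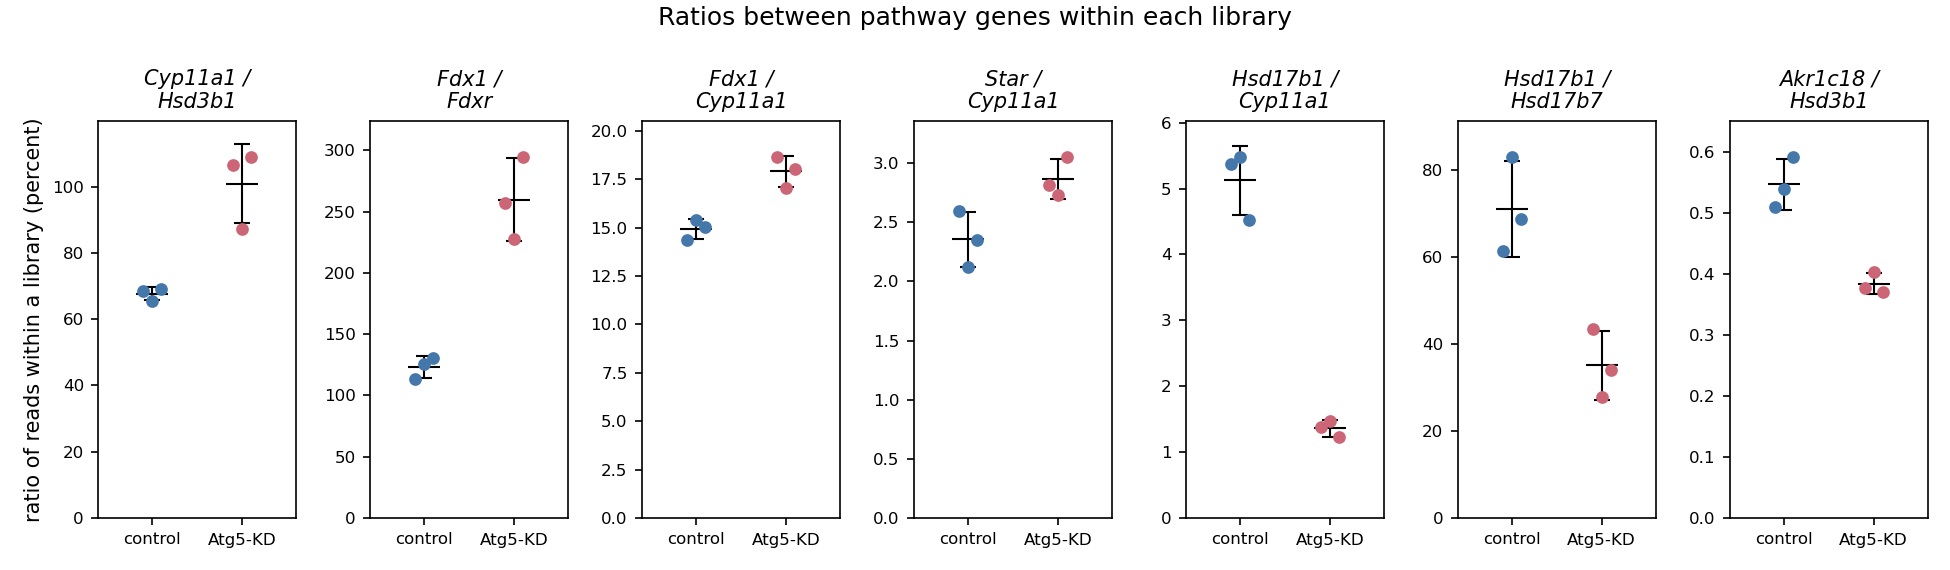
Reads of 1 pathway gene as percent of the reads of another in the same library, for 7 pairs. Points are the 3 control and 3 Atg5-KD libraries, lines with caps the mean ± SD; the first 4 ratios are higher and the last 3 lower in Atg5-KD, and no pair of groups overlaps.

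Levels of different genes can be set side by side only per length, here as normalized count per kilobase of annotated exon. Exons of all annotated transcripts of a gene were merged, so the order depends on these lengths (4.80 kilobases for Cyp11a1, 1.85 for Hsd3b1). In control the order was Hsd3b1 (24918 ± 2760), Cyp11a1 (6514 ± 699), Fdx1 (1507 ± 200), Fdxr (1347 ± 85.6), Hsd17b1 (1192 ± 99.2), Hsd17b7 (443 ± 31.7), Akr1c18 (211 ± 37.3) and Star (178 ± 16.5), with Cyp19a1 (0.229 ± 0.267) and Cyp17a1 (0.0949 ± 0.164) last (SD, n = 3 each). The neighbours Fdx1 and Fdxr, Fdxr and Hsd17b1, Akr1c18 and Star, and the last 2 genes overlapped between libraries, and the other neighbours stood apart. In Atg5-KD Fdx1 (3948 ± 712), Fdxr (1674 ± 132) and Hsd17b1 (688 ± 48.6) no longer overlapped with their neighbours. Star (478 ± 98.4) had passed Akr1c18 (214 ± 9.10) and overlapped with Hsd17b7 (527 ± 83.3). Per kilobase, Star was the lowest of the 5 genes from cholesterol import to progesterone in both groups.

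Promoter sequence is shown because several of the genes moved together. The letters AGGTCA are part of the site bound by NR5A1 (SF-1) and NR5A2 (LRH-1), nuclear receptors that drive steroid enzyme genes in gonads. Other nuclear receptors bind the same letters, so a match is not particular to these 2. In the authors' deposited table Nr5a1 was lower, at a log2 fold change of -0.25 ± 0.09 (SE), and Nr5a2 higher, at 0.62 ± 0.12 (DESeq2 adjusted p 0.0184 and 8.18e-06), both named after their values were seen. RefSeq promoter windows of GRCm38.p6, the 250 bases before each annotated start, were matched for 7 of the 10 genes in 10 windows, and Star, Cyp17a1 and Hsd17b1 were not matched. AGGTCA on either strand was found in 2 of these 10 windows and in 14.0% of 32851 windows of all genes. The matches were in 1 of the Cyp11a1 windows, at chr9:58014912-58014941 on the plus strand, from base -40 to base -11 relative to the start, and in 1 of the Cyp19a1 windows, at chr9:54268228-54268257 on the minus strand, from base -93 to base -64. Capitals mark the matched letters, which in Cyp19a1 are read on the opposite strand. The whole Cyp11a1 window lies in annotated exon, of a transcript not identified here.
Cyp11a1: gaggaaggggggAGGTCAccgctccatcag
Cyp19a1: agttggaatttgTGACCTctagaacccaag

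The window of Fdx1 (chr9:51963603-51963852, minus strand) and that of Hsd3b1 (chr3:98859795-98860044, minus strand) are shown for comparison, as the tested genes with the highest fold change and the highest level per length among those with a window outside exons. They hold none of the 4 motifs searched on both strands, so no base is in capitals.
Fdx1: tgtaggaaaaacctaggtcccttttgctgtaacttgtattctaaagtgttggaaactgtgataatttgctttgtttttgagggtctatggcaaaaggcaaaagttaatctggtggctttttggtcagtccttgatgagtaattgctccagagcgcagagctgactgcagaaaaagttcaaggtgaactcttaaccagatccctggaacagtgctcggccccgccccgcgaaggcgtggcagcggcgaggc
Hsd3b1: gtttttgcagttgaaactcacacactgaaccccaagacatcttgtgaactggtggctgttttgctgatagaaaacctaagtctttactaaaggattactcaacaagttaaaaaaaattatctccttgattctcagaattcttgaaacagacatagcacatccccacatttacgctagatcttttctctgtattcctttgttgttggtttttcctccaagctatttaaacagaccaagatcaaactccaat
The other motifs were the TATA box TATAAA, in 2 of the 10 windows (both of Cyp19a1) and 12.4% of all windows, the cyclic AMP response element TGACGTCA, in 0 of 10 and 1.55%, and a simplified interferon-stimulated response element, GAAA followed after 2 free bases by GAAA, in 0 of 10 and 2.98%. A match is a stretch of letters in this window and does not show that a factor was bound.

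Cholesterol reaches this pathway through uptake, storage and carriers, and 7 of 23 tested genes of that kind were higher in Atg5-KD and 1 lower, with a median log2 fold change of 0.13. Of all tested genes, 10.4% were higher and 10.5% lower. With both groups set to an equal total of all counts, 4 were higher and 8 lower, against 3.60% and 38.7% of all tested genes, so the lower share of the list was then near that of all genes. Scarb1, the receptor that takes up cholesterol from high-density lipoprotein, had normalized counts of 9737, 9619 and 10347 in control and 18169, 13112 and 18171 in Atg5-KD. Its groups did not overlap, and K2 was the lowest Atg5-KD library as for Star, Cyp11a1 and Fdx1. The authors' deposited table lists Scarb1 at a log2 fold change of 0.74 ± 0.12 (SE), with a DESeq2 adjusted p of 3.24e-08. Soat1, which esterifies cholesterol for storage, rose by a log2 fold change of 0.56 ± 0.10 and Stard5, a cytosolic sterol carrier related to StAR, by 1.29 ± 0.14 (adjusted p 2.67e-06 and 2.39e-18, DESeq2, the authors' deposited table). Vim, an intermediate filament protein, fell by 0.32 on the log2 scale (adjusted p 0.00560) and Prkar1a, a regulatory subunit of protein kinase A, was not called at 0.13 (adjusted p 0.257), both from DESeq2 in the authors' deposited table.

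Among 17 other tested steroid enzymes and partners, 1 was higher and 6 were lower, with a median log2 fold change of -0.09. The shares of all tested genes were 10.4% and 10.5%. Under equal totals of all counts the split was 0 higher and 9 lower, against 3.60% and 38.7% of all tested genes. The higher one was Por, the reductase that feeds electrons to microsomal cytochrome P450 enzymes, with a log2 fold change of 0.38 ± 0.10 and a DESeq2 adjusted p of 0.00123 in the authors' deposited table. Akr1c14, a 3-alpha-hydroxysteroid dehydrogenase, had normalized counts of 16893, 18990 and 18111 in control and 9085, 14190 and 10019 in Atg5-KD. All Atg5-KD libraries were below the control libraries, with K2 the nearest to them. Akr1c14 stood at a log2 fold change of -0.70 ± 0.14 (SE) in the authors' deposited table, with a DESeq2 adjusted p of 8.22e-06. Hsd11b2, which inactivates corticosterone, was at 176.7, 190.3 and 186.1 in control and 54.68, 61.25 and 22.77 in Atg5-KD, and its log2 fold change was -1.98 ± 0.26 (DESeq2 adjusted p 8.03e-13, the authors' deposited table). Cyp1b1, which hydroxylates estradiol, was lower by -0.34 ± 0.12 (adjusted p 0.0204), and Akr1cl, the most abundant gene of this list, was not called at -0.02 ± 0.11 (adjusted p 0.916), both from DESeq2 in the authors' deposited table.

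Of 30 tested hormone receptors and transcription factors of the pathway, 7 rose and 7 fell, and the median log2 fold change was 0.09. Of all tested genes 10.4% rose and 10.5% fell. Under equal totals of all counts 4 rose and 11 fell, against 3.60% and 38.7% of all tested genes, so that the share that fell was near that of all genes. Lhcgr, the receptor for luteinizing hormone, had normalized counts of 51.83, 49.26 and 52.82 in control and 161.5, 206.7 and 419.8 in Atg5-KD. The control libraries were close to each other, and K3 was far above K1 and K2. The log2 fold change of Lhcgr was 2.35 ± 0.28 (SE) with a DESeq2 adjusted p of 6.00e-15, and that of Prlr, the prolactin receptor, was 1.52 ± 0.14 with an adjusted p of 3.95e-24, in the authors' deposited table. Foxo1, a forkhead factor of growing granulosa cells, was lower by -0.98 ± 0.14 with a DESeq2 adjusted p of 2.53e-10 in the authors' deposited table. Fosl2, Ctnnb1 and Gata4, the most abundant of the others, were not called, at log2 fold changes of 0.31, 0.12 and 0.26 (DESeq2 adjusted p 0.0764, 0.323 and 0.0745, the authors' deposited table).

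Ferredoxin carries an iron-sulfur cluster, and of 16 tested genes of cluster assembly and iron uptake 1 rose and 2 fell, and the median was -0.02. These shares were near the 10.4% and 10.5% of all tested genes. Under equal totals of all counts 0 rose and 7 fell, against 3.60% and 38.7% of all tested genes. Tfrc, the transferrin receptor, was higher by 0.35 ± 0.10 and Glrx5, a mitochondrial glutaredoxin of cluster transfer, lower by -0.29 ± 0.11 (DESeq2 adjusted p 0.00576 and 0.0453, the authors' deposited table). The chaperone Hspa9 and the cysteine desulfurase Nfs1 were not called, at 0.19 and 0.02 (DESeq2 adjusted p 0.103 and 0.939, the authors' deposited table).

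**Figure D4:**
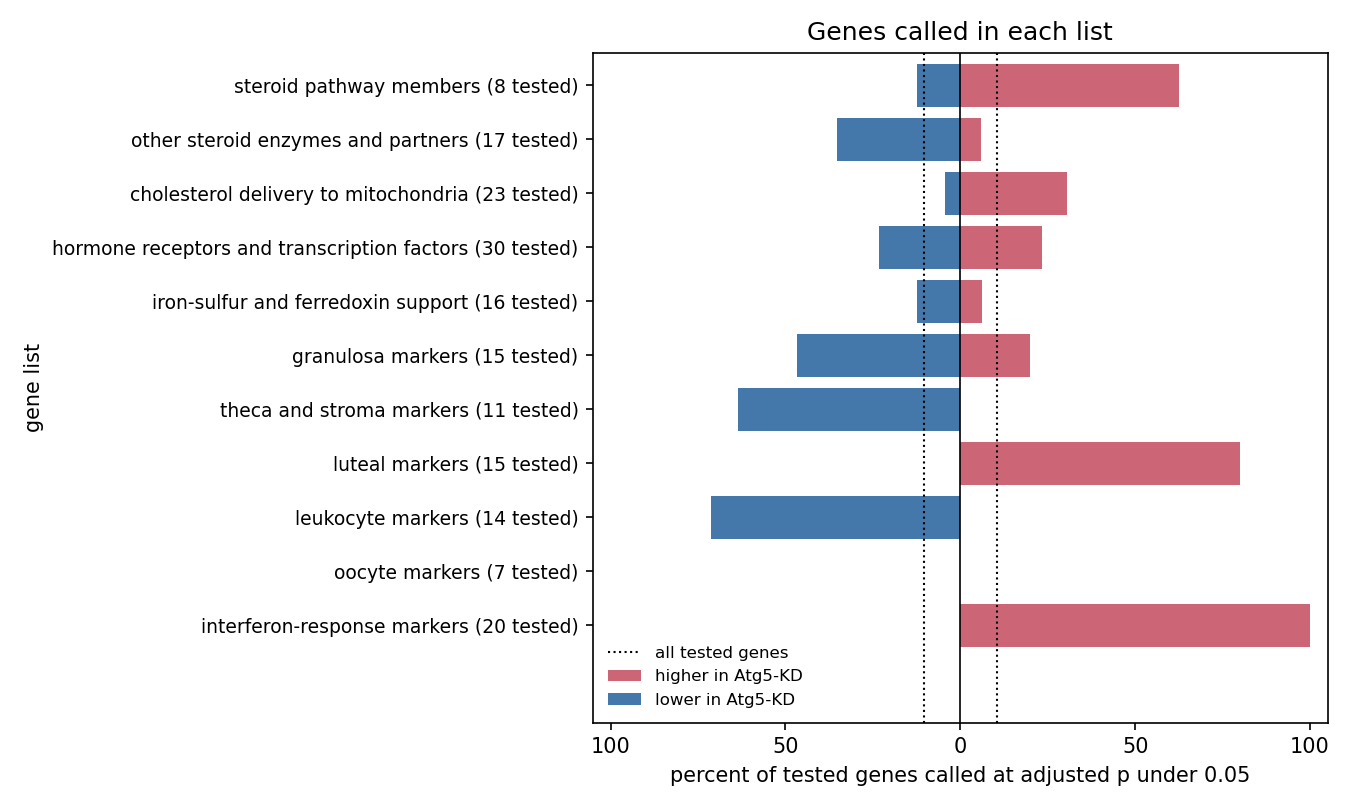
Percent of the tested genes of each list called higher (right) or lower (left) in Atg5-KD at an adjusted p under 0.05 in the authors' deposited table, for lists with at least 5 tested genes. Dotted lines mark all tested genes, 10.4% and 10.5%. The interferon-response and luteal lists lie wholly to the right, and the steroid pathway and cholesterol delivery lists mostly so. The theca and stroma and leukocyte lists lie wholly to the left.

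Markers of several cell types also differed between the groups, in either direction, and their part in these results was not tested. Of 15 tested luteal markers 12 were higher and 0 lower, but 5 on that list are pathway members; of the 10 others 8 were higher, with a median of 0.59 and summed counts of 49827 to 51524 in control and 69178 to 80608 in Atg5-KD. Of 15 tested granulosa markers 3 rose and 7 fell (median -0.26), and Hsd17b1 is 1 of them; of all tested genes 10.4% rose and 10.5% fell. Under equal totals of all counts 2 of these markers rose and 9 fell, against 3.60% and 38.7% of all tested genes. Gja1, the gap junction protein connexin 43, was lower by -0.33 ± 0.09 and Inha, the inhibin alpha subunit, was not called at -0.14 ± 0.10 (DESeq2 adjusted p 0.00343 and 0.340, the authors' deposited table). Both were abundant, with means of 42021 ± 1507 and 31530 ± 546.4 normalized counts in control (SD, n = 3 each), while aromatase, a defining granulosa marker, was at 4 reads in control and 8 in Atg5-KD.

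Most markers of theca, stroma and leukocytes were lower in the Atg5-KD libraries. Of 11 tested theca and stroma markers 0 were higher and 7 lower, with summed counts of 9320 to 10711 in control and 5474 to 7271 in Atg5-KD, and the defining theca gene Cyp17a1 had 1 read. The log2 fold changes of Col1a1 and Col1a2, the collagens of stroma, were -1.10 ± 0.14 and -0.89 ± 0.13 (DESeq2 adjusted p 5.76e-13 and 1.96e-10, the authors' deposited table). Leukocyte markers fell in 10 of 14 tested genes, with a median of -2.01 and summed counts of 1888 to 2574 in control and 407.0 to 772.0 in Atg5-KD. Of all tested genes 10.4% were higher and 10.5% lower. With equal totals of all counts, 10 theca and stroma and 14 leukocyte markers were lower, against 38.7% of all tested genes. Lyz2 and Cd68, genes of macrophages, had log2 fold changes of -2.14 ± 0.32 and -1.09 ± 0.21 (DESeq2 adjusted p 2.09e-09 and 4.77e-06, the authors' deposited table).

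Oocyte markers were at 58.96 to 100.1 summed counts in control and 71.16 to 115.6 in Atg5-KD, with 0 of 7 tested genes called by DESeq2, 0 at an unadjusted p under 0.05 and 0 by limma. Gdf9, an oocyte growth factor, and Zp2, a protein of the egg coat, were at log2 fold changes of 0.26 ± 0.46 and 0.17 ± 0.58 in the authors' deposited table. The adrenal genes Cyp11b1, Cyp11b2, Cyp21a1 and Mc2r were at 0 in all libraries. Of the erythroid markers the hemoglobin genes were at 0, and Alas2, a heme synthesis enzyme, was higher by 1.96 ± 0.37 (DESeq2 adjusted p 2.15e-06, the authors' deposited table).

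Genes of the interferon response also differed between the groups. All 20 tested were higher in Atg5-KD, with a median log2 fold change of 5.03, against 10.4% of all tested genes. Their summed counts were 4499 to 5148 in control and 15772, 13942 and 17286 in K1 to K3, the same order of K2, K1 and K3 as for Star, Cyp11a1 and Fdx1. Hsd3b1 (lowest in K1) and Fdxr (highest in K1) had other orders. The orders of Cyp11a1 and Hsd3b1 rest on values per library that are less certain. The leukocyte sum had the opposite order, 541.8, 772.0 and 407.0. Bst2, an antiviral membrane protein, had a log2 fold change of 0.54 ± 0.10 (DESeq2 adjusted p 2.80e-06, the authors' deposited table). With 3 libraries a group these orders are descriptions, and the part of the interferon genes in the pathway results was not tested.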

How the data were processed

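RNA of 3 control and 3 Atg5-KD libraries was compared in 1 deposited table. Named without role or order in the submitters' processing notes are the build mm10, DESeq2 1.30.1 (run by the authors), featureCounts 1.6.2, STAR and StringTie 2.1.4. Per the file headers, the table holds DESeq2 results made by the authors. Its base mean is a signal deposited by the authors, the mean of counts divided by size factors. The log2 fold change and its SE were deposited on the log2 scale, the Wald statistic is a deposited score, and the p-value and adjusted p-value were deposited too. The adjusted p-value (Benjamini-Hochberg, 14835 genes) under 0.05 was the call.

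Base mean, fold change and SE were solved for the whole reads per library that give back the deposited log2 fold change to within 2e-14. This succeeded for 19234 of 19241 genes with a p-value (99.96%), the 10 pathway genes included. Both this step and the fit below were tested on simulated data. For Cyp11a1 and Hsd3b1, 0.29 and 0.41 coincidental matches were to be expected, so their values per library are less certain. Their group means follow from the deposited base mean and fold change. No such number is given here for Gja1, Inha, Akr1c14 and Scarb1, which were also abundant. The reads were fitted with limma 3.58.1 (voom) as an alternative added after the data were seen, since they are derived and not a deposited count column.

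The pathway genes and all gene lists were chosen with earlier results of these data known. Other genes named by rule are, in each pathway list, the 4 of highest base mean and those called with an absolute log2 fold change of at least 1, and in each marker list the 2 of highest base mean. Atg5, Nr5a1, Nr5a2, Hsd3b2 to Hsd3b7, Rn45s, Gm17322, Cyp11b1, Cyp11b2, Cyp21a1 and Mc2r are named outside that rule. Exon lengths come from GENCODE vM21 (mm10), promoters from RefSeq GRCm38.p6. Some genes that this rule names are not reported here.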

Additional observations from a re-analysis of the deposited data

How the results depend on the processing

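Star, Cyp11a1, Fdx1 and Hsd17b1 kept their direction in every setting tried and their call in all but 1. That setting, a t distribution with 4 degrees of freedom in place of the normal, called 0 of all tested genes after adjustment (2698 at an unadjusted p under 0.05), so members called were 0 higher and 0 lower (5 and 1 at an unadjusted p under 0.05; limma called 5 and 1). There Star stayed at 1.42, Cyp11a1 at 1.12, Fdx1 at 1.39, Fdxr at 0.31, Hsd3b1 at 0.55 and Hsd17b1 at -0.79. The fold test against 0.25 called 3 members higher and lost Fdxr (0.31) and Hsd3b1 (0.55). Holm adjustment also lost Fdxr (0.31), and an equal total of all counts put it at 0.01. Leaving out 1 library gave log2 fold changes of 0.26 to 0.37 for Fdxr, 0.14 to 0.37 for Hsd17b7 and -0.10 to 0.16 for Akr1c18. Hsd17b7 turned to -0.05 under the total of all counts. Akr1c18 turned to -0.27 there, to -0.01 without Rn45s and to -0.07 with the GC and length trend removed. Cyp17a1, with 1 read, turned from -0.16 to 0.28 in limma with no filter on low values. The cause of these shifts was not tested beyond each setting's own construction. Members called higher were 4 under Holm adjustment, 4 under the total of all counts and 4 to 6 with 1 library left out. Fits with edgeR's TMM and DESeq2 size factors were planned for a count column, which the table used here lacks. They were not run on the recovered reads, which were fitted with limma. No paired analysis was possible because the recovered libraries carry no replicate number.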
